A study of Mus musculus with 6 samples.

Results

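Atrial cardiomyocyte genes were followed through RNA sequencing of mouse heart. The group holds 7 genes, Myl7, Myl4, Sln, Mybphl, Bmp10, Nr2f2 and Stard10, taken as the rows whose Ensembl identifier carries one of these symbols in the GENCODE annotation. All 7 were found among the 54532 gene identifiers measured, and 6 of them passed the filter on low values and were among the 14227 genes tested. Bmp10 did not pass it. The tissue was left ventricular myocardium in the methods and heart in the sample labels. Each of 6 separate male C57BL/6 mice, aged 6 to 8 weeks at the start, gave 1 library. The 3 HFpEF mice had a high-fat diet, with 60% of kcal from fat, together with L-NAME at 0.5 g/L in their water over 12 weeks. L-NAME inhibits nitric oxide synthase, and the combination is a model of HFpEF, heart failure with preserved ejection fraction. The 3 Chow mice had a standard diet and plain water over the same time. Only male mice were used, and no genetic change is named for either group.

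Atrial and ventricular cardiomyocytes build the same sarcomere from partly different proteins. The adult atrium uses the myosin light chains encoded by Myl7 and Myl4 where the ventricle uses those of Myl2 and Myl3, and sarcolipin (Sln) where the ventricle uses phospholamban (Pln) to restrain the calcium pump of the sarcoplasmic reticulum. The atria also differ from each other: Bmp10, which encodes a secreted bone morphogenetic protein, and Hamp, which encodes hepcidin, mark the right side.

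The sequences of the promoters of the 4 sarcomere-associated or secreted members below are shown because 3 of these genes had nearly the same profile over the 6 libraries and the fourth did not. Each is the 250 bases before the annotated start in RefSeq (GRCm38.p6), 5′ to 3′ on the gene's own strand. Myl7 lies at chr11:5898783-5899032 on the minus strand, Myl4 at chr11:104550413-104550662, Mybphl at chr3:108364661-108364910 and Bmp10 at chr6:87428744-87428993, all 3 on the plus strand. Capitals mark matches, on either strand, to a CArG box or to the GATA site AGATAA.
Myl7: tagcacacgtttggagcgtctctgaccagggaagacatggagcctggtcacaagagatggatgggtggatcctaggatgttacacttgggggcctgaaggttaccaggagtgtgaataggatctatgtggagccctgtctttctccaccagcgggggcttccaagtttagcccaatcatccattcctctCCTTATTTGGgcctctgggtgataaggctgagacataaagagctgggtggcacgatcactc
Myl4: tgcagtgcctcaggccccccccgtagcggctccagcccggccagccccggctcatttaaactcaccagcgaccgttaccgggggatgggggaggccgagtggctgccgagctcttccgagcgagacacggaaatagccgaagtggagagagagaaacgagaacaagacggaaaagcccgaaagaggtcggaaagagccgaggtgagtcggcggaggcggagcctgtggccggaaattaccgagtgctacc
Mybphl: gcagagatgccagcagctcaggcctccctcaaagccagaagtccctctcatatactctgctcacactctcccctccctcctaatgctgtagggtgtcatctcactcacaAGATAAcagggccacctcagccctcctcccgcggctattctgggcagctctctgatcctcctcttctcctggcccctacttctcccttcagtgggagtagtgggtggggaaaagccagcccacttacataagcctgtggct
Bmp10: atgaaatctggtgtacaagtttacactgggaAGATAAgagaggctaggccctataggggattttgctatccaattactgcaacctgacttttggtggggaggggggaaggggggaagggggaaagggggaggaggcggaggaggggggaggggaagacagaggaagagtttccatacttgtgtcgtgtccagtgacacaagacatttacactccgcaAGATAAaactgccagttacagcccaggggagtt

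A window was available for 6 of the 7 genes. The 5 motifs searched on both strands were the COUP-TF half-site AGGTCA, the T-box half-site AGGTGT, the GATA site AGATAA, the CArG box and the MEF2 box. The Myl7 window held 1 CArG box, 61 to 52 bases before the start, which 1.47% of the 32851 windows of this length also held. Mybphl held 1 GATA site, 141 to 136 bases before its start, and Bmp10 held 2, at 219 to 214 and 33 to 28 bases, against 9.99% of all windows with at least 1. AGGTCA was present in 14% of all windows, AGGTGT in 11.8% and the MEF2 box in 2.92%. The windows of Myl4, Nr2f2 and Stard10 held none of the 5. No window of Sln was searched. These matches are letters in a window and do not show binding.

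The values are FPKM, fragments per kilobase of exon relative to library size. The length matched the summed length of all annotated exons of a gene, which can differ from that of the transcript expressed. Ranks and ratios between genes depend on that length, whereas comparisons of a gene between libraries do not. Reads recovered from them totalled 12460349 to 14913796 per Chow library and 12783524 to 15281000 per HFpEF library. HFpEF replicate 3 stood apart from the other 5 libraries. Genes encoded in the mitochondrion took 7.64% of its reads, against 21.1% and 23.8% in the other HFpEF libraries and 26.02% ± 1.10 (SD, n = 3) in Chow, and the summed FPKM of 8 fibroblast markers was 5522 there, against 220 to 494 in the other 5. Results are therefore also given without that library. Among the ventricular markers, the light chain gene Myl2 was abundant in all 6, between rank 21 and rank 29 by FPKM. Transcription factor genes of that list were lower, with Hey2 at 1.15 to 2.69 FPKM.

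Myl7 encodes the atrial regulatory light chain of myosin (ENSMUSG00000020469, GRCm38 chromosome 11, 5896637 to 5898782). Libraries Chow 1, Chow 2 and Chow 3, numbered by replicate, had 3.81, 0.289 and 237 FPKM, and libraries HFpEF 1, HFpEF 2 and HFpEF 3 had 975, 2073 and 8.60 FPKM. HFpEF 1 and HFpEF 2 were high, Chow 3 was intermediate, and HFpEF 3 lay close to Chow 1, so the groups overlapped. In rank by FPKM the gene stood at 34 and 17 in HFpEF 1 and HFpEF 2, at 158 in Chow 3, at 4165 in HFpEF 3, and at 7431 and 15484 in Chow 1 and Chow 2. The mean of the Chow group was 80.4 ± 136 FPKM (SD, n = 3), and that of the HFpEF group was 1019 ± 1033 FPKM (SD, n = 3). The fitted log2 fold change, HFpEF against Chow, was 5.19 (SE 2.86), with a limma adjusted p of 0.312, so the difference was within the spread between mice. In bulk tissue, more cells of a type and more RNA per cell cannot be told apart.

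Myl4 encodes the atrial essential light chain (ENSMUSG00000061086, chromosome 11, 104550663 to 104595753). Its FPKM was 0.379, 0.239 and 49.98 in the Chow libraries and 213, 378 and 2.58 in the HFpEF libraries, in replicate order. The same 3 libraries, HFpEF 2, HFpEF 1 and Chow 3, were high, and the groups overlapped. The log2 fold change was 4.90 (SE 2.53) with a limma adjusted p of 0.286.

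Sln encodes sarcolipin, a small inhibitor of the sarcoplasmic reticulum calcium pump (ENSMUSG00000042045, chromosome 9, 53850164 to 53854560). Its FPKM was 0, 0 and 54.5 in Chow and 219, 431 and 1.37 in HFpEF. No read was recovered in Chow 1 or Chow 2, which at 3 reads allows an FPKM of up to 0.160 and 0.194, and 869 were recovered in Chow 3. The log2 fold change was 5.99 (SE 3.11), a value that the choice of pseudocount moves because of the zeros, with a limma adjusted p of 0.289.

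Mybphl encodes a relative of cardiac myosin-binding protein C that is found in atrial muscle and the conduction system (ENSMUSG00000068745, chromosome 3, 108364911 to 108380057). Its FPKM was 0, 0.134 and 21.8 in Chow and 100.2, 181 and 1.01 in HFpEF. The order of the libraries was again HFpEF 2, HFpEF 1, Chow 3, HFpEF 3 and then the other Chow libraries. The log2 fold change was 5.09 (SE 2.62) with a limma adjusted p of 0.284. Of its 1227 stretches of 50 exon bases, 42 (3.42%) also occur in the gene Gm12522, so a small part of its reads could be shared.

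**Figure D1:**
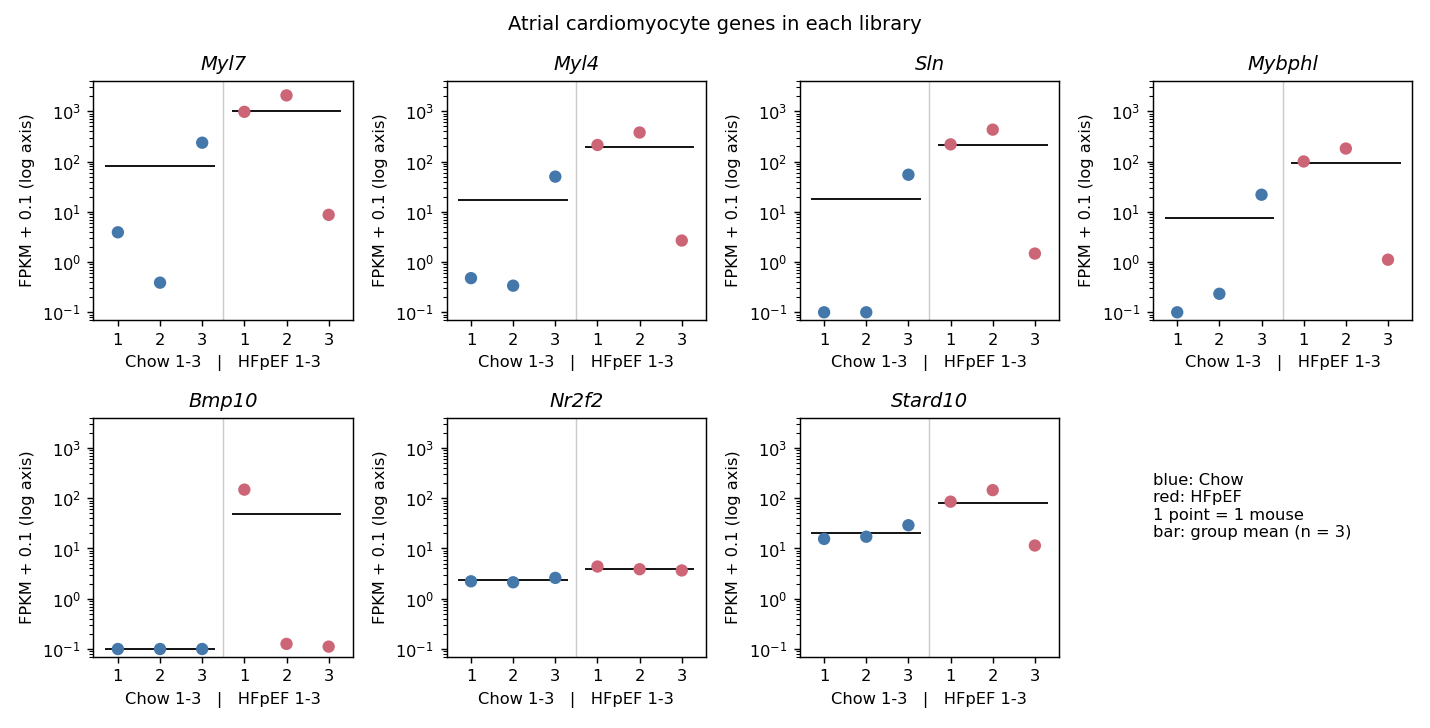
FPKM plus 0.1 on a log axis for each of the 7 genes in each library (1 point is 1 mouse, bars are group means, n = 3). Myl7, Myl4, Sln and Mybphl are high in HFpEF 1, HFpEF 2 and Chow 3 and low in HFpEF 3, whereas Bmp10 is high in HFpEF 1 alone.

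These 4 genes kept nearly constant proportions to each other wherever they were measured with many reads. In Chow 3, HFpEF 1 and HFpEF 2, the 3 libraries with over 1000 Myl7 reads, the FPKM ratio of Sln to Myl7 was 0.230, 0.225 and 0.208. The corresponding ratios of Myl4 were 0.211, 0.219 and 0.183, and those of Mybphl were 0.0918, 0.103 and 0.0876. The largest ratio exceeded the smallest by a factor of 1.10 for Sln, 1.17 for Mybphl and 1.20 for Myl4, while Myl7 itself differed 8.74-fold between HFpEF 2 and Chow 3. The Myl4 ratio was lower in HFpEF 2 (95% counting interval 0.179 to 0.186) than in HFpEF 1 (0.213 to 0.225) by more than counting error. In HFpEF 3, with 98 Myl7 reads, the ratio was 0.300 for Myl4 (95% counting interval 0.237 to 0.380), 0.160 for Sln (0.109 to 0.235) and 0.118 for Mybphl (0.0760 to 0.183). The Myl4 ratio there was above those of the 3 libraries by more than counting error, while the intervals of Sln and Mybphl included the ratios of all 3. Chow 1, with 32 Myl7 reads, also departed from these proportions. Its ratio was 0.0994 for Myl4 (95% counting interval 0.0589 to 0.168), and it had 0 reads of Sln and of Mybphl. Chow 2 had 2 Myl7 reads, too few for a ratio. These intervals cover counting error only.

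**Figure D2:**
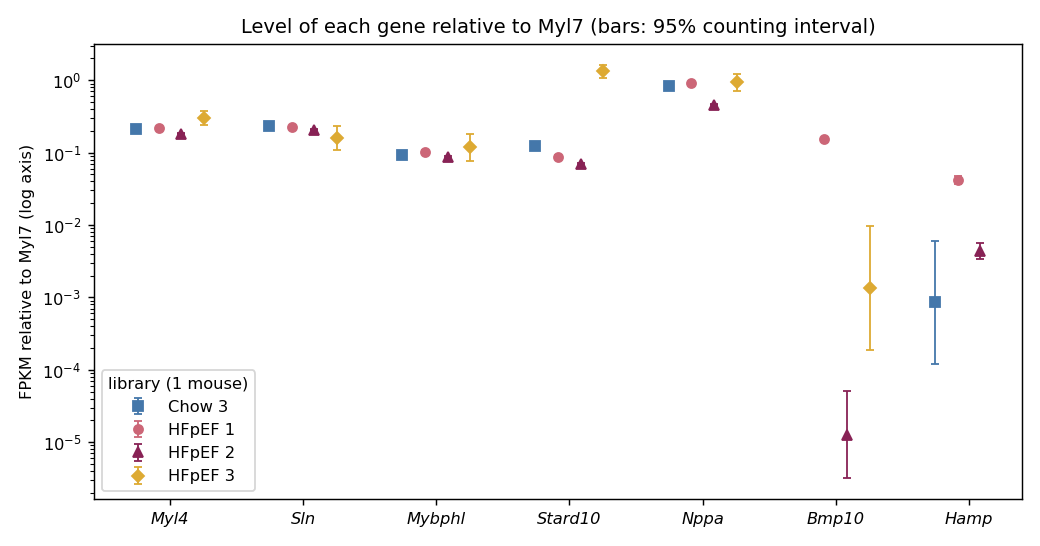
FPKM of 7 genes divided by the FPKM of Myl7 in the same library, on a log axis, with 95% counting intervals (a ratio of 0 is not drawn). Chow 1 and Chow 2 are not drawn. The ratios of Myl4, Sln and Mybphl lie close together in Chow 3, HFpEF 1 and HFpEF 2, and those of Bmp10 and Hamp are spread over more than a factor of 10.

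Likeness of profile was measured as the root mean square difference over the 6 libraries of log2(FPKM + 0.1) after subtraction of each gene's Chow mean. Among the other 14226 tested genes, Myl4 was nearest to Myl7 (0.90), Sln was next (1.23) and Mybphl followed at rank 3 (1.33). The nearest pair of members was Mybphl and Myl4 (0.52). Seen from Myl7, Stard10 was at rank 62 (3.89) and Nr2f2 at rank 594 (4.74). These ranks were not mutual: Myl7 was at rank 14219 seen from Stard10 and at rank 14223 seen from Nr2f2. The measure keeps the size of the differences, so these 2 genes were not close to Myl7. The order of libraries that Myl7, Myl4, Sln and Mybphl shared was held by 48 of the 14227 tested genes, or 0.337%. The genes named here were chosen in knowledge of earlier results of these data, so these ranks are a description.

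The 10 genes outside the group nearest to Myl7 began with Mlana, Tmem163 and Cilp2, followed by Gm13054, Nppa, Dkk3 and Fgf12. Mlana, best known as a melanocyte gene, had FPKM of 0, 0 and 3.19 in Chow and 14.1, 6.63 and 0.332 in HFpEF. Tmem163, a zinc transporter gene, had 0.0818, 0.0199 and 1.56 in Chow and 8.55, 11.7 and 0.229 in HFpEF. Gm13054 is an antisense gene that overlaps part of Nppa on chromosome 4. The sources used here do not state whether strand was used in counting, so the origin of reads in the stretch that both genes share is not known. The last 3, Gm25373, Mir5119 and Gm23318, had at most 6 reads in a library.

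Each sarcomere or calcium pump gene of the atrium was next set beside its relative of the ventricle or of both chambers. Myl7 made up 0.173%, 0.0122% and 9.44% of the summed FPKM of Myl7 and Myl2 in Chow, and 44.8%, 63.0% and 0.997% in HFpEF. In HFpEF 2 the FPKM of Myl7 was thus above that of Myl2, although Myl7 had 20718 reads and Myl2 had 40161. The exon lengths were 590 bases for Myl7 and 1950 for Myl2, so this order rests on the scaling by length. The size of each share depends on such lengths, whereas its order over the libraries does not. Sln made up 0, 0 and 8.55% of the sum of Sln and Pln in Chow, and 31.5%, 49.8% and 0.616% in HFpEF. The share of Myl4 in the sum with Myl3 reached 22.8%, and that of Mybphl in the sum with Mybpc3, the cardiac myosin-binding protein C gene, reached 25.5%, both in HFpEF 2.

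**Figure D3:**
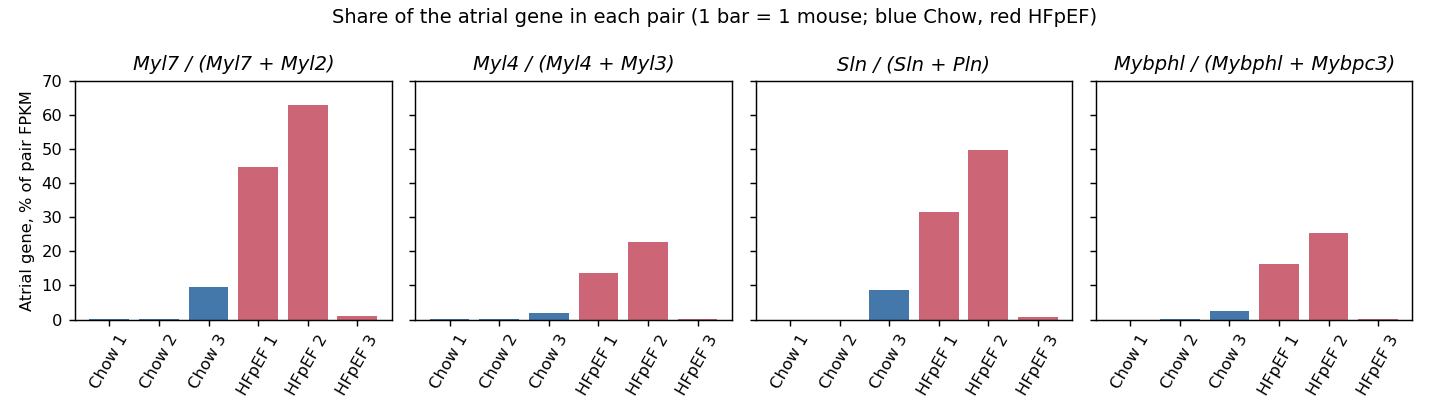
FPKM of an atrial gene as a percent of the summed FPKM of that gene and its relative in the same library (1 bar is 1 mouse). All 4 pairs show the same order of bars, highest in HFpEF 2, then HFpEF 1 and Chow 3.

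The ventricular relatives were lower in all 3 HFpEF libraries, HFpEF 3 included, and so followed a different course over the libraries. Myl2 had FPKM of 2197, 2361 and 2275 in Chow and 1203, 1216 and 854 in HFpEF, without overlap, and a log2 fold change of -1.08 (SE 0.21, limma adjusted p = 0.0989). Chow 3, which had the highest atrial levels of its group, had a Myl2 level between those of Chow 1 and Chow 2. Of 8 ventricular genes, 6 had every HFpEF library below every Chow library, a pattern that 19.8% of all tested genes showed, and none passed the limma adjusted p, while 5 were lower at an unadjusted p under 0.05, against 13.1% of all tested genes. Irx5, a transcription factor gene of the ventricular wall, had the lowest adjusted p (0.0558), and the median log2 fold change of the 8 was -0.90 against -0.01 over all tested genes. Genes of cardiomyocytes of both chambers had a median of -0.58, and 10 of 10 were below Chow in every HFpEF library. Scaling the libraries by that list moved the median of all genes by 0.60 on the log2 scale, and the 6 ventricular genes without overlap kept a negative log2 fold change there, since each of their differences was larger than this shift.

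Bmp10, the right atrial ligand gene, behaved differently from the sarcomere genes (ENSMUSG00000030046, chromosome 6, 87428994 to 87437677). Its FPKM was 0 in all 3 Chow libraries and 148, 0.0263 and 0.0115 in HFpEF 1, 2 and 3. These values correspond to 9217 reads in HFpEF 1, 2 reads in HFpEF 2 and 1 read in HFpEF 3. HFpEF 1 was at least 2603-fold above the highest Chow level that 3 reads allow, while HFpEF 2, with 20718 Myl7 reads, and Chow 3, with 1692, were at or under 3 reads of Bmp10. Because only 1 library reached an FPKM of 0.5, Bmp10 was not tested, and with no filter its limma adjusted p was 0.585.

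Hamp, the other right atrial gene, also differed between the libraries that were high in Myl7. It had 0, 0 and 1 read in Chow and 232, 63 and 0 reads in HFpEF, which is an FPKM of 40.9 in HFpEF 1 and 9.07 in HFpEF 2. Relative to Myl7, Hamp was at 0.0419 in HFpEF 1 and 0.00438 in HFpEF 2, so HFpEF 1 was the higher of the pair for both right atrial genes. Hamp did not pass the filter, and this contrast between single mice has no replicate.

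Genes of the sinoatrial node, the pacemaker at the right atrium, were low. Shox2, a transcription factor gene of this node, had FPKM of 0.276, 0.129 and 0.125 in Chow and 0.458, 2.03 and 0.782 in HFpEF, highest in HFpEF 2. Vsnl1, a calcium sensor gene, was at 1.42 in HFpEF 2 and at 0.0423 to 0.148 in the other 5 libraries. Of the 7 node genes 3 were tested, none passed the adjusted p, 1 (Tbx18, 0.89 on the log2 scale) was higher at an unadjusted p under 0.05, against 10.2% of all tested genes, and the log2 fold changes of Tbx3 (-0.08) and of the pacemaker channel gene Hcn4 (-0.40) were within overlapping groups.

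**Figure D4:**
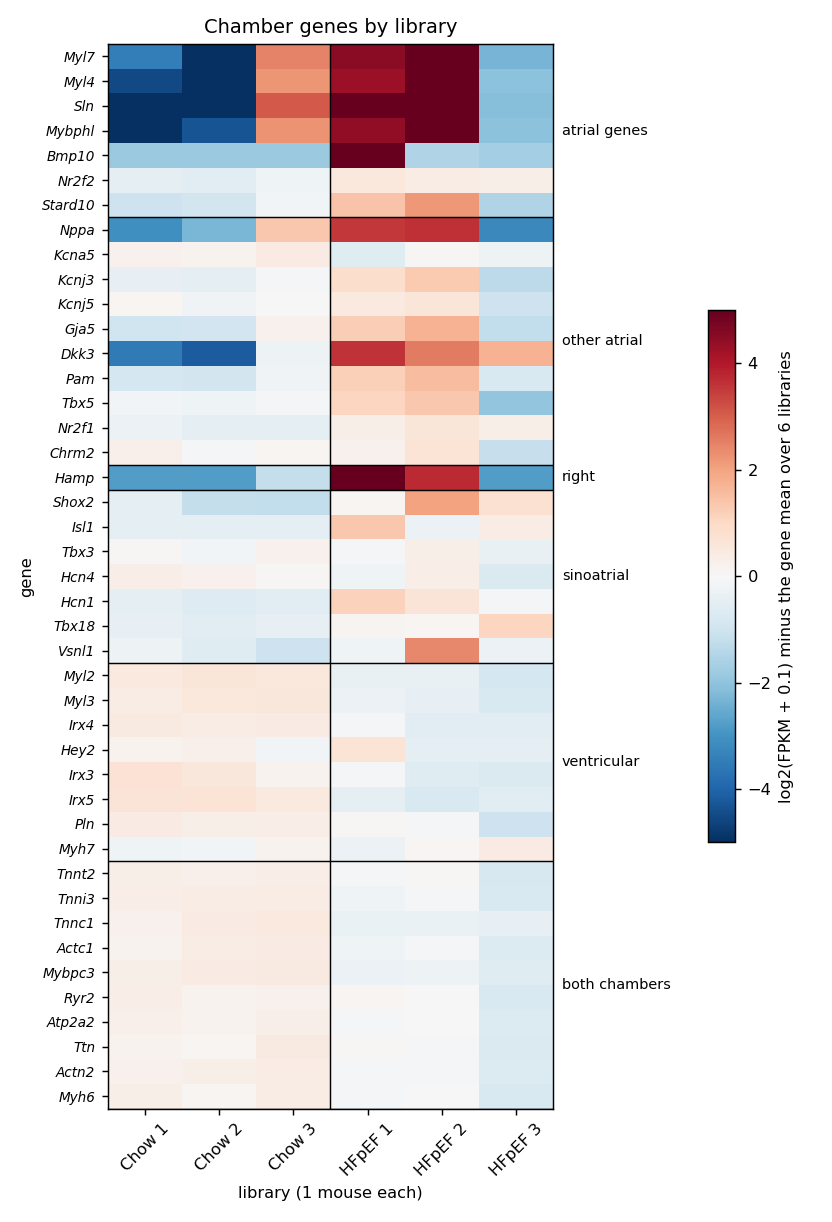
Log2(FPKM + 0.1) of chamber genes in each library, minus the mean of the gene over the 6 libraries, with colours saturated at 5 in either direction. The rows of Myl7, Myl4, Sln and Mybphl and of Nppa follow one another, Bmp10 is high in HFpEF 1 alone, and the ventricular and shared genes are lower in all HFpEF libraries except Hey2 in HFpEF 1 and Myh7.

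Nr2f2 encodes COUP-TFII, a nuclear receptor of atrial cardiomyocytes that venous and lymphatic endothelium also uses (ENSMUSG00000030551, chromosome 7, 70351944 to 70366735). Its FPKM was 2.13, 2.03 and 2.502 in Chow and 4.28, 3.77 and 3.56 in HFpEF. Every HFpEF library, HFpEF 3 included, was above every Chow library, and Chow 3 was within 1.18 times of Chow 1. The means were 2.22 ± 0.251 (SD, n = 3) and 3.87 ± 0.370 (SD, n = 3), and the log2 fold change was 0.78 (SE 0.14). The unadjusted limma p was 0.00104 and the adjusted p was 0.0963, which misses the threshold. Without HFpEF 3 the adjusted p was 0.0277, and after scaling by cardiomyocyte genes it was 0.0457 at a log2 fold change of 1.37, of which 0.60 is the shift of the median of all genes. Of its 8582 stretches of 50 exon bases, 631 (7.35%) also occur in other genes. The close relative Nr2f1 was likewise higher in every HFpEF library, by 0.80 on the log2 scale (limma adjusted p = 0.112).

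Markers of the venous and lymphatic endothelium summed to FPKM of 96.0, 64.0 and 70.5 in Chow and 84.7, 65.2 and 73.6 in HFpEF, with overlap. None of the 8 tested passed the adjusted p. At an unadjusted p under 0.05, 2 were higher and 1 was lower, against 10.2% and 13.1% of all tested genes. Within that list Lyve1 (log2 fold change 0.62) and Pdpn (1.5) were higher in every HFpEF library and Prox1 (-0.67) was lower. These patterns were shown by 15.5% and 19.8% of all tested genes, and the other 5 markers tested had overlapping groups. Of 8 fibroblast markers 7 were higher in every HFpEF library, against 15.5% of all tested genes, and none passed the adjusted p (lowest 0.0989, limma). The part of these cells in the Nr2f2 difference was not tested.

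Stard10 encodes a transfer protein for phosphatidylcholine and phosphatidylethanolamine (ENSMUSG00000030688, chromosome 7, 101317086 to 101346626). Its FPKM was 15.4, 17.1 and 29.0 in Chow and 85.4, 145 and 11.4 in HFpEF. HFpEF 2, HFpEF 1 and Chow 3 were once more the highest 3, above the other 3 libraries at 11.4 to 17.1, and HFpEF 3 was the lowest of all. The log2 fold change was 1.40 (SE 0.90) with a limma adjusted p of 0.374, so the difference was within the spread between mice. It was 2.49 without HFpEF 3 (limma adjusted p = 0.0285) and 0.66 without HFpEF 2 (adjusted p = 0.647), so the value rested on which HFpEF library was left in. The related lipid transfer genes did not share the profile, with log2 fold changes of -0.42 for Stard7 (limma adjusted p = 0.188) and 0.19 for Pctp (adjusted p = 0.466).

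By the limma test none of the 6 tested members had an adjusted p under 0.05, against 0.0984% of all tested genes in either direction. With voom on the recovered reads none of the members and none of the 13557 genes tested was called. At an unadjusted p under 0.05, 1 of the 6, Nr2f2, was higher in HFpEF, against 10.2% of all genes. Nr2f2 was also the 1 tested member with every HFpEF library above every Chow library, against 15.5% of all genes. All 6 had a positive log2 fold change (median 5.00), as had 6939 of the 14227 genes tested. Myl4, Sln and Mybphl were under an FPKM of 0.5 in Chow 1 and Chow 2 and passed the filter through the other 4 libraries, so these counts and this median are a description.

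These counts depended on which mice were compared. Without Chow 3, 5 of the 6 lay above Chow in all HFpEF libraries, against 20.0% of all genes, and none passed the adjusted p. Without HFpEF 3, all 6 tested members did so, against 20.4% of all genes, and 2, Stard10 and Nr2f2, passed the adjusted p, against 2.85% of all genes called higher. The log2 fold change of Myl7 was 7.72 without Chow 3 (limma adjusted p = 0.321) and 7.64 without HFpEF 3 (adjusted p = 0.230), and between 3.09 and 4.76 without each of the other 4 libraries in turn.

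**Figure D5:**
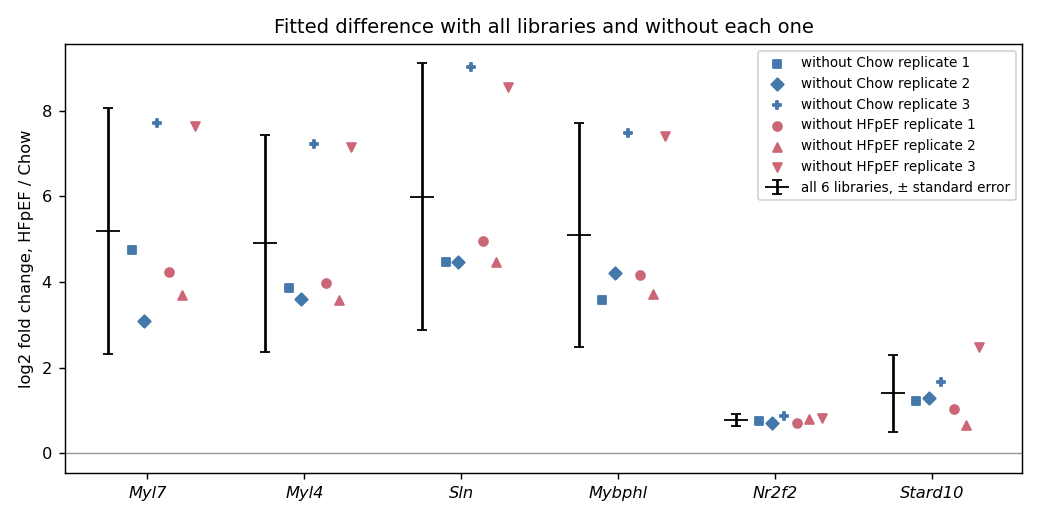
Fitted log2 fold change, HFpEF against Chow, of the 6 tested genes with all libraries (bar with standard error) and without each library in turn (symbols). The values of Myl7, Myl4, Sln and Mybphl are highest without Chow 3 or HFpEF 3, while those of Nr2f2 stay between 0.70 and 0.86.

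Of 10 other genes with known atrial enrichment, all 10 were tested and none passed the adjusted p, while at an unadjusted p 2 were higher and 1 was lower, against 10.2% and 13.1% of all tested genes. Of the 10, 2 were above Chow in every HFpEF library and 1 was below, against 15.5% and 19.8% of all tested genes, so these shares were near those of all genes, and the median log2 fold change was 0.70. Nppa, which encodes atrial natriuretic peptide, had FPKM of 9.09, 15.7 and 197 in Chow and 896, 952 and 8.02 in HFpEF (log2 fold change 2.64, SE 2.07, limma adjusted p = 0.457). Relative to Myl7 it was at 0.829 in Chow 3, 0.919 in HFpEF 1, 0.933 in HFpEF 3 and 0.459 in HFpEF 2, so its proportion was about 2.00-fold lower in HFpEF 2 than in HFpEF 1. Pam, which encodes the enzyme that amidates peptide hormones and is abundant in atrial granules, had 47.5, 45.2 and 76.0 in Chow and 197, 254 and 51.7 in HFpEF, in the same order of libraries as Myl7.

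Kcnj3, an atrial potassium channel subunit gene, Gja5, which encodes the gap junction protein connexin 40, and Tbx5, a transcription factor gene of the atria and left ventricle, had the same highest 3 libraries. That pattern was shared by 567 tested genes, or 3.99%. For Tbx5, Chow 3 was only 1.02 times Chow 1 (6.85 against 6.73 FPKM). Kcnj5 (log2 fold change 0.04), Chrm2 (-0.16) and Nr2f1 of the same list did not have this pattern. Gja5 had FPKM of 1.41, 1.44 and 3.37 in Chow and 6.90, 9.89 and 1.17 in HFpEF. Dkk3, a secreted glycoprotein gene, went another way, with 0.941, 0.584 and 10.04 in Chow and 148, 74.1 and 40.7 in HFpEF, where HFpEF 3 was also above Chow (log2 fold change 5.31, SE 1.04, limma adjusted p = 0.0989). Kcna5, another potassium channel gene, was lower in every HFpEF library (-0.56, adjusted p = 0.155), a difference that is smaller than the shift of 0.60 under scaling by cardiomyocyte genes and takes the opposite sign there.

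The receptors and targets of BMP10 were read next. Of 18 genes of this pathway 15 were tested, none passed the adjusted p, 2 were higher at an unadjusted p, near the 10.2% of all tested genes, and their log2 fold changes had a median of 0.16. The endothelial receptor genes Acvrl1 (log2 fold change 0.01) and Eng (-0.01) and the type II receptor gene Bmpr2 (0.18) had overlapping groups. Among the target genes, Id2 had FPKM of 4.29, 3.43 and 3.19 in Chow and 13.2, 4.70 and 7.81 in HFpEF (1.10, limma adjusted p = 0.156). The inhibitory gene Smad6 was at 16.0 in HFpEF 1 and at 5.74 to 8.22 in the other 5 libraries. Id1, in contrast, was lowest in HFpEF 1 (26.3 against 32.2 to 41.8), and Id3 (48.8) and Smad7 (11.3) were highest in HFpEF 3, so the target genes had no common order over the libraries. Smad7 was higher in every HFpEF library (0.69, limma adjusted p = 0.108).

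Among 7 genes of the sarcoplasmic reticulum pump and its small regulators, 6 were tested and none passed the adjusted p. At an unadjusted p under 0.05, 1 of the 6, Strit1, was lower, near the 13.1% of all tested genes. This gene, which encodes the pump activator DWORF, had FPKM of 4.05, 10.2 and 8.85 in Chow and 1.78, 1.70 and 3.41 in HFpEF (log2 fold change -1.67, limma adjusted p = 0.119). These values rest on few reads, 14, 29 and 26 in Chow and 6, 7 and 16 in HFpEF. The pump gene Atp2a2 was lower in every HFpEF library (-0.50, limma adjusted p = 0.270), as were 19.8% of all tested genes. It was not lower after scaling by cardiomyocyte genes. Atp2a2 is itself in the list used for that scaling, so the scaled value cannot decide whether it differed. Among 11 tested myosin light chain identifiers, the skeletal muscle gene Myl1 had the same highest 3 libraries as Myl7, with 14.5 in Chow 3 and 31.9 and 39.8 in HFpEF 1 and HFpEF 2.

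Markers of other tissues were read beside the atrial genes. The 7 atrial genes summed to FPKM of 21.7, 19.7 and 395 in Chow and 1746, 3212 and 28.5 in HFpEF. In the low libraries Stard10 was the largest part of this sum, at 15.4 in Chow 1, 17.1 in Chow 2 and 11.4 in HFpEF 3. Markers of skeletal muscle, which also uses Sln, summed to 3.18, 3.14 and 2.69 in Chow and 2.69, 3.01 and 2.88 in HFpEF, and of its 10 genes the defining myosin gene Myh4 and the troponin gene Tnnc2 were at 0 in every library. Adipocyte markers summed to at most 0.0481 in Chow and to 89.3, 88.2 and 36.6 in HFpEF. The 5 adipocyte genes tested were at or near 0 in Chow and passed the filter through the HFpEF libraries alone, so their tests are not given.

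Markers of cartilage and valve summed to 8.54, 9.18 and 10.4 in Chow and 50.3, 12.9 and 75.1 in HFpEF. Those of mesothelium and epicardium summed to 29.3, 18.7 and 27.2 in Chow and 36.4, 131 and 58.6 in HFpEF. Epithelial markers summed to 1.21 to 2.92 in Chow and 4.77 to 13.6 in HFpEF, and liver markers to at most 2.03 in any library. The mesothelial and epithelial sums were highest in HFpEF 2 and the fibroblast sum in HFpEF 3, whereas Chow 3 was the library with the high atrial levels among Chow. In Chow 3 the skeletal muscle, venous and lymphatic, fibroblast and mesothelial sums lay within or below the values of the other Chow libraries, and those of cartilage and valve (10.4), epithelium (2.92) and liver (1.73) lay above them. Their part in the atrial differences, and the part of the piece of heart that was sampled, was not tested.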

How the data were processed

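RNA from mouse heart was measured in 6 libraries, 3 Chow and 3 HFpEF, grouped by their sample titles. FPKM deposited by the authors covered 54532 identifiers and came from a HISAT2 alignment with featureCounts gene counts, on GRCm38 (mm10), the build in the submitters' processing notes; the FPKM formula, annotation release and strand setting are not given in the sources used here. Their own comparison used a model of raw counts, so limma was applied to the deposited FPKM here.

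FPKM was multiplied by union exon length (GENCODE M21), and 96.1% to 96.2% of values above 0 were whole multiples of 1 step at a relative tolerance of 1e-06. These gave the reads quoted, and the other values were left out of read totals. FPKM was scaled by the median of ratios, and log2(FPKM + 0.1) was fitted with limma 3.58.1 in R 4.3.3 (lmFit and a robust, trended eBayes, no covariate). A gene was tested if 3 or more libraries reached an FPKM of 0.5, and calls had a Benjamini-Hochberg adjusted p under 0.05 over all 14227 genes. The fit was tested on simulated data. Other software was Python 3.11.15 with pandas 2.3.3, scipy 1.17.1, numpy 2.4.6 and matplotlib 3.10.9.

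Genes named are the 7 members, the chamber, light chain, myosin-binding protein, calcium pump, BMP10 and lipid transfer lists, and the 10 genes nearest Myl7. Genes of other cell-type lists named in the text were chosen after their values were seen. Results for some genes of these lists are not reported here. Members and lists were chosen with earlier results of these data known. Limits at 0 use 3 reads, and limits and intervals cover counting error only. Same-numbered Chow and HFpEF libraries did not deviate together (r of -0.041, -0.073 and -0.057), so the numbers do not pair them. Alternatives were other scalings, pseudocounts, filters, variance models, thresholds, voom on recovered reads, a replicate block and leaving out each library.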

Additional observations from a re-analysis of the deposited data

How the results depend on the processing

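The log2 fold changes of the 6 tested members were positive under all 16 alternatives run for each. They ranged from 3.09 to 7.72 for Myl7, 3.57 to 7.22 for Myl4, 4.00 to 9.02 for Sln, 3.50 to 7.48 for Mybphl, 0.66 to 2.49 for Stard10 and 0.60 to 1.37 for Nr2f2. None of the first 4 passed the limma adjusted p under any of them. The count of members called was 0, and it was 1 (Nr2f2) after scaling by cardiomyocyte genes, 1 (Nr2f2) at an unadjusted p, and 0 to 2 when 1 library was left out, with 2 without HFpEF 3. The count without overlap was 1, and it was 1 to 6 when 1 library was left out (5 without Chow 3, 6 without HFpEF 3). With no filter it was 2, which adds Bmp10. That addition rests on 2 reads in HFpEF 2 and 1 read in HFpEF 3, against 0 in each Chow library, all under the limit of 3 reads. It is therefore not a separation of the groups beyond counting error, and the share of all genes with this pattern under no filter is not given here.

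Over all genes the count of 14 became 106 (105 higher and 1 lower, against 13 and 1) after scaling by cardiomyocyte genes, 3 with a pseudocount of 1, 5 with a pseudocount of 0.01, 33 without the trend and robust options, 8 with a log2 fold change of at least 2 added and 3323 at an unadjusted p. With voom on recovered reads it was 0 (3171 at an unadjusted p). It ranged from 2 to 1188 when 1 library was left out: 2 without each Chow library in turn, 3 without HFpEF 1, 53 without HFpEF 2 and 1188 without HFpEF 3. With the replicate number as a block it was 2, and no member was called. The cause of these moves was not tested. With 3 mice a group, and Bmp10 and Hamp carried by few reads in most libraries, differences in right atrial genes could not be tested.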
